A study of Rattus norvegicus with 145 samples.

Results

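The comparison described here is that of cerebellum from Q130 knock-in (KI) and wild-type (WT) rats at 19 months of age, 20 of the 145 libraries of the series. Its samples were chosen by their labels for region, genotype and age, which gave 10 KI and 10 WT libraries, with 5 females and 5 males in each genotype. The rats were Long Evans, and KI animals were heterozygous for the Q130 allele; the labels do not say whether WT animals were littermates. Messenger RNA was read by bulk RNA sequencing, and each library came from 1 animal, so that p-values measure the spread between animals. Cortex and striatum of the same 20 animals were also sequenced (20 libraries each), as was cerebellum of other animals at 24 months (7 KI and 4 WT). The 19-month animals carry identifiers of another form than those of the other ages, so cohort and age cannot be told apart.

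Huntington's disease is caused by a lengthened CAG repeat in the gene for huntingtin, a large scaffold protein present in most cells. A knock-in places such a repeat in the animal's own gene, under its own promoter, so the mutant protein is made wherever huntingtin normally is. The striatum degenerates most in patients. The cerebellum, made up mostly of small granule neurons together with Purkinje cells, interneurons and glia, is affected less and is often used as a comparison region. In bulk tissue, fewer cells of a type and less RNA per cell cannot be told apart.

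Genes carry Ensembl rat identifiers, and 0 of 32883 could be paired with a symbol here. Genes are therefore described by 4 identifiers and as groups defined by what these libraries measure. The targeted gene could not be picked out, so the genotype labels were not checked against it, and lists of cell type markers or pathways were not tested. Total estimated counts ran from 25553369 to 34449295 per library, with overlapping ranges in the genotypes. As a check of the sex labels, 7 genes that differed at least 8-fold between the sexes in WT cortex at 10 months all separated the 20 libraries by sex without overlap. Mean Spearman correlation of a library with the 19 others ran from 0.981 to 0.992, and the libraries KI F5 (female 5) and WT M2 (male 2) stood apart at 0.981 and 0.982. These also had the most negative correlations between a gene's deviation from the mean and its effective transcript length, at -0.34 and -0.273, against a range of -0.168 to 0.275 in the other libraries. Library numbers are counted separately in each region, so the same number can stand for different animals in 2 regions. Results that may rest on KI F5 and WT M2 are given with and without them.

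KI cerebellum differed from WT cerebellum by many small changes in transcript level. Of 15341 genes tested, 156 were higher and 196 lower in KI (edgeR quasi-likelihood test with sex as a covariate, Benjamini-Hochberg adjusted p under 0.05), which is 2.29% of genes, 1.02% higher and 1.28% lower. Without KI F5 and WT M2, 216 were higher and 260 lower, and 322 of the 352 genes were again called. Of the genes that rose, 52 differed by less than 0.25 on the log2 scale, 51 by 0.25 to 0.5, 41 by 0.5 to 1 and 12 by 1 or more. Of those that fell, the same classes held 82, 80, 29 and 5 genes. The median log2 difference was 0.34 among genes that rose and -0.28 among those that fell, while over all genes tested it was -0.00046.

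The genes that fell had higher transcript levels than those that rose. On the TPM scale, which corrects for length, the median WT level was 51.9 for genes that fell, 12.2 for genes that rose and 18.1 for all genes tested. With genes ranked by WT level at 24 months and divided into 5 classes of equal size, 0.521% of the lowest class and 3.23% of the highest fell. The shares that rose were 0.945% and 0.782%. The median standard error of the log2 difference was 0.2 in the lowest class and 0.0462 in the highest, and the part of this precision in the shares was not tested.

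**Figure D1:**
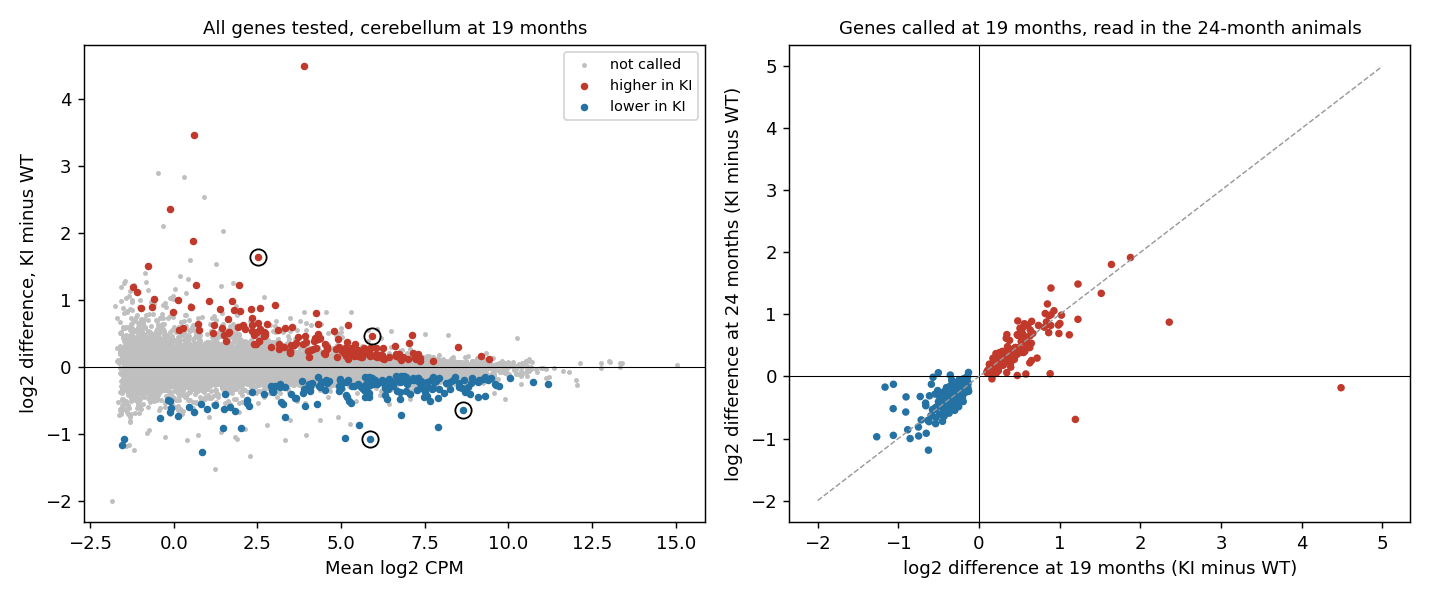
Left, the log2 difference between KI and WT cerebellum at 19 months against mean log2 CPM for the 15341 genes tested, with the 156 that rose in red, the 196 that fell in blue and the 4 genes described by identifier ringed. Right, the genes called at 19 months (horizontal axis) against their log2 difference in the 24-month animals (vertical axis), with a dashed line of equality; 152 of 155 risers and 193 of 196 fallers lie on the same side of 0.

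In 49 genes the 10 KI and 10 WT libraries did not overlap in CPM (counts scaled to library size), 19 with every KI library above every WT library and 30 with every KI library below. These are 0.319% of the genes tested, 0.124% above and 0.196% below. All 49 were among the genes called, which is largely built in, since both readings use the same libraries. Changes of at least 2-fold included genes with and without overlap. Of 12 genes that rose at least 2-fold, 3 had no overlap between genotypes, and of 5 that fell at least 2-fold, 2 had none. The 12 had a median WT level of 0.494 CPM, and 3 of them reached a mean log2 CPM of 1. The riser with the largest log2 difference, 4.49 (edgeR adjusted p = 0.0417), was high in a few KI animals. Its KI libraries ran from 0.703 to 134 CPM with a median of 2.83, its WT libraries from 0.56 to 4.01 with a median of 0.978, and 4 KI libraries lay above the highest WT library. At 24 months its log2 difference was -0.18 (edgeR adjusted p = 0.859).

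The 4 genes described one by one are those of smallest p whose average log2 CPM reached 1 and whose direction was shared by the sexes, 2 that rose and 2 that fell. ENSRNOG00000017456 rose about 3-fold from a low level. In WT its lowest, median and highest libraries stood at 1.70, 2.65 and 4.11 CPM, and in KI at 4.96, 9.21 and 10.1 CPM. All KI libraries were above all WT libraries, and the WT library nearest to them, WT M1 at 4.11 CPM, lay apart from the next at 2.94. The means were 2.73 ± 0.592 CPM in WT and 8.61 ± 1.79 in KI (SD, n = 10 each), and the log2 change was 1.64 ± 0.137 (SE; edgeR adjusted p = 2.5e-07).

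Among KI animals this gene varied more in males than in females, with SDs of 1.99 and 0.477 CPM (n = 5 each; not tested). The 5 KI females stood at 9.03 to 10.1 CPM, whereas the KI males stood at 4.96, 5.95, 8.03, 9.07 and 9.56 CPM. The lowest male, KI M1, had the highest correlation of deviation with transcript length of the 20 libraries, 0.275. Its part in this spread was not tested. The log2 difference was 1.85 ± 0.087 in females (SE; edgeR adjusted p = 1.08e-06) and 1.43 ± 0.238 in males, where it did not pass (adjusted p = 0.0563). The difference between the sexes was -0.43 ± 0.258 (SE) and did not pass either (edgeR, sex by genotype, adjusted p = 0.706).

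ENSRNOG00000015713 rose by a smaller step at a higher level. WT libraries ran from 43.1 through a median of 49.8 to 60.2 CPM, and KI libraries from 61.5 through 70.9 to 74.3 CPM. The genotypes did not overlap, although the highest WT library, WT M1 at 60.2 CPM, came close to the lowest KI library, KI M3 at 61.5 CPM. The means were 50.7 ± 4.79 and 70.1 ± 4.23 CPM (SD, n = 10 each), so KI stood at 138% of WT, a log2 change of 0.47 ± 0.0503 (SE; edgeR adjusted p = 1.07e-05). In females it was 0.57 ± 0.0557 (SE; edgeR adjusted p = 0.00116) and in males 0.38 ± 0.0745 (adjusted p = 0.0887), with a difference between the sexes of -0.20 ± 0.0924 (sex by genotype, adjusted p = 0.692).

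ENSRNOG00000005609 was an abundant gene of the cerebellum that fell in every KI animal. WT libraries ran from 429 through a median of 483 to 529 CPM, and KI libraries from 267 through 313 to 345 CPM. No library lay between 345 and 429 CPM. KI stood at 64.5% of WT, with means of 484 ± 26.4 and 312 ± 25 CPM (SD, n = 10 each) and a log2 change of -0.63 ± 0.0454 (SE; edgeR adjusted p = 6.13e-08). Females gave -0.67 ± 0.0682 (SE; edgeR adjusted p = 0.00116) and males -0.59 ± 0.0633 (SE; edgeR adjusted p = 0.00503). Of the 4 genes it had the highest level per length, 457 ± 37 TPM in WT against 72.1 ± 9.74, 23 ± 1.86 and 2.58 ± 0.534 TPM for ENSRNOG00000034102, ENSRNOG00000015713 and ENSRNOG00000017456 (SD, n = 10).

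ENSRNOG00000034102 had the larger fall of the 2 genes that fell. WT libraries ran from 57.8 through a median of 79 to 101 CPM, and KI libraries from 28.4 through 37 to 46.1 CPM, again without overlap. The means were 78 ± 11.8 and 37.2 ± 5.46 CPM (SD, n = 10 each), which puts KI at 47.7% of WT, a log2 change of -1.06 ± 0.0795 (SE; edgeR adjusted p = 7.98e-08). WT males stood higher than WT females, at 79.2 to 101 against 57.8 to 78.8 CPM. The fall was called in both sexes, at -1.13 ± 0.105 in males (SE; edgeR adjusted p = 0.00257) and -0.99 ± 0.108 in females (SE; edgeR adjusted p = 0.00157).

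**Figure D2:**
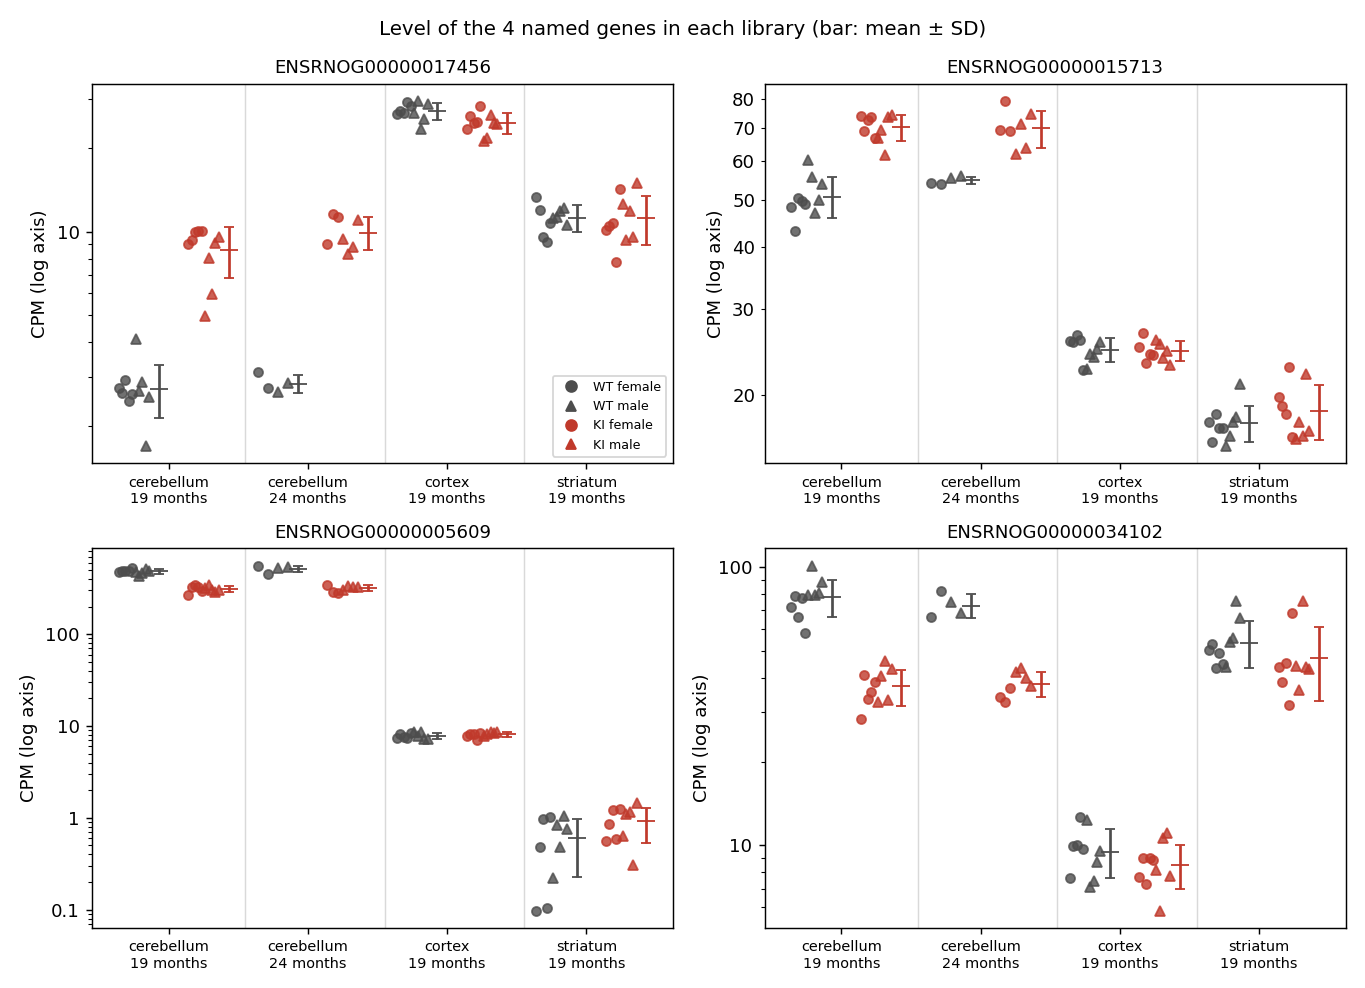
CPM (log axis, own scale per panel) of the 4 genes in each library of cerebellum at 19 and 24 months and of cortex and striatum at 19 months, WT in grey and KI in red, circles for females and triangles for males, with mean ± SD beside the points. KI and WT libraries separate in cerebellum at both ages and overlap in cortex and striatum; CPM was scaled within each set of libraries.

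In cortex and striatum of the same 20 animals none of the 4 genes was called. There the KI and WT libraries overlapped for all 4. ENSRNOG00000017456 averaged 27.1 ± 1.87 CPM in cortex of WT and 24.5 ± 2.08 in that of KI, a log2 change of -0.15 ± 0.0499 (SE; edgeR adjusted p = 0.755), and at 11.2 ± 1.22 and 11.2 ± 2.25 CPM in striatum (SD, n = 10 each). ENSRNOG00000005609, abundant in cerebellum, stood at 7.84 ± 0.546 and 8.13 ± 0.46 CPM in WT and KI cortex and at 0.602 ± 0.375 and 0.915 ± 0.377 CPM in striatum. ENSRNOG00000034102 stood at 53.4 ± 10.2 and 46.9 ± 13.9 CPM in WT and KI striatum, a log2 change of -0.18 ± 0.139 (SE; edgeR adjusted p = 0.9999).

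Whether the genotype difference itself differed between regions was tested within animals. The KI effect on ENSRNOG00000017456 was higher in cerebellum by 1.80 ± 0.133 on the log2 scale than in cortex (SE; edgeR adjusted p = 7.13e-08) and by 1.67 ± 0.195 than in striatum (SE; edgeR adjusted p = 0.000246). For ENSRNOG00000015713 it was higher by 0.48 ± 0.0651 (edgeR adjusted p = 0.000516) and 0.40 ± 0.0735 (edgeR adjusted p = 0.0285). For ENSRNOG00000034102 it was lower in cerebellum, with differences of -0.91 ± 0.171 (edgeR adjusted p = 0.0166) and -0.85 ± 0.112 (edgeR adjusted p = 0.000741). For ENSRNOG00000005609 it was lower than in cortex by -0.69 ± 0.0618 (adjusted p = 1.34e-06). Against striatum, where that gene averaged under 1 CPM, the difference of -1.25 ± 0.344 did not pass (adjusted p = 0.266).

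Over all genes, 52 passed this test against cortex, 0.312% of 16687 tested, and 20 against striatum, 0.119% of 16742. Against cortex the KI effect was higher in cerebellum for 28 genes (0.168%) and lower for 24 (0.144%). Of these, 27 of the 28 were genes that rose in KI cerebellum and 22 of the 24 were genes that fell. Both tests use the same 20 cerebellum libraries, so this overlap is in large part built in and is given as a description. Against striatum, with the same limit, all 11 with the higher effect (0.0657%) had risen and all 9 with the lower effect (0.0538%) had fallen. The 149 risers measured in cortex had a median log2 difference of 0.01 there and the 185 fallers -0.03, and in striatum the medians were 0.03 for 147 risers and -0.01 for 189 fallers. Within cortex alone 0 of 15514 genes were called between KI and WT (edgeR, 805 at an unadjusted p under 0.05). Within striatum 3 were called, or 0.0193%, of which 2 were higher (0.0129%) and 1 lower (0.00645%). There 264 of 15514 genes had an unadjusted p under 0.05, less than the share of 0.05 that genes without a difference would give. The few calls in striatum therefore do not show that little changed there.

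Cerebellum of other animals, at 24 months, was read for the same genes. At 24 months, where 2.1% of genes were called, 58 of the 156 risers and 76 of the 196 fallers of 19 months passed as well, against 1.17% of genes called higher and 0.927% called lower in the 24-month comparison as a whole. Of 155 risers with a value at 24 months 152 were higher in KI, and of 196 fallers 193 were lower, where 49.7% of all genes were higher. All 4 genes were called again. KI stood at 348% of WT for ENSRNOG00000017456 (edgeR adjusted p = 7.16e-06) and at 128% for ENSRNOG00000015713 (edgeR adjusted p = 0.00936). It stood at 61.5% for ENSRNOG00000005609 (edgeR adjusted p = 4.88e-05) and 52.3% for ENSRNOG00000034102 (edgeR adjusted p = 4.88e-05). The 7 KI and 4 WT libraries overlapped for none of them. The change in the KI effect from 19 to 24 months did not pass for any of the 4 (edgeR adjusted p = 0.9995 for each). In that test 0 of 15811 genes passed, with 521 at an unadjusted p under 0.05 and 0 called by DESeq2. Those 521 are less than the share of 0.05 that genes without a difference would give. With 4 WT animals at 24 months, the lack of calls does not show that the KI effect was the same at both ages.

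The genes called at 24 months were then used to place each 19-month animal. A score was taken as the mean log2 CPM of the 182 genes that rose at 24 months minus that of the 144 that fell, with the WT mean set to 0. It was given no test. The 10 KI cerebella scored from 0.377 to 0.785 with a median of 0.601, and the 10 WT cerebella from -0.187 to 0.132 with a median of 0.00274. Every KI animal lay above every WT animal, and this held for both terms of the score: the genes that rose put KI at 0.126 to 0.397 against at most 0.0783 in WT, and those that fell put KI at -0.412 to -0.223 against at least -0.0847 in WT.

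The SD of this score was 0.126 among KI animals and 0.0963 among WT animals (not tested). KI M1 was lowest at 0.377, and on the genes that rise it stood at 0.126 while the other KI animals stood between 0.214 and 0.397. KI M4 was highest at 0.785. The outlying library KI F5 scored 0.648, within the range of the other KI females of 0.438 to 0.697. In WT the score also separated the sexes, with males from 0.0246 to 0.132 and females from -0.187 to -0.0191. The 24-month lists came from a fit with sex as a covariate, and KI means were 0.595 ± 0.0988 in females and 0.588 ± 0.161 in males (SD, n = 5 each).

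In the forebrain of the same animals the score did not separate the genotypes. KI cortex ran from -0.0567 to 0.0787 and WT cortex from -0.103 to 0.0714, with 1 of 10 KI libraries above the highest WT library. KI striatum ran from -0.239 to 0.0809 and WT striatum from -0.167 to 0.101.

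**Figure D3:**
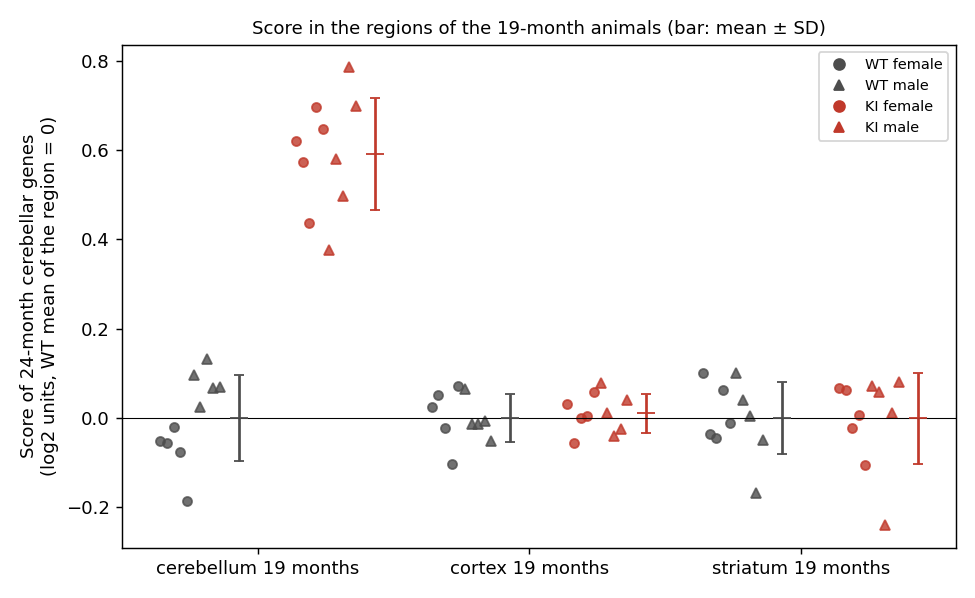
Score of the genes called in cerebellum at 24 months, in log2 units with the WT mean of each region at 0, for every library of the 19-month animals, WT in grey and KI in red, circles for females and triangles for males, with mean ± SD. The KI cerebella sit between 0.377 and 0.785, above all WT cerebella, while KI and WT overlap in cortex and striatum.

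Females and males, which are separate animals, were also set side by side. Within females 77 genes were called, or 0.51%, with 39 higher and 38 lower in KI, and 1405 had an unadjusted p under 0.05. Within males 8 were called, or 0.0528%, all lower, with 1599 at an unadjusted p under 0.05. Of the 39 genes that rose in females 36 were higher in KI males too, with a median log2 difference of 0.34 against 0.69 in the females that chose them, where 52.3% of all genes were higher in KI males. Of the 38 that fell 37 were lower in KI males, with medians of -0.31 and -0.42. All 8 genes that fell in males were lower in KI females, with medians of -0.54 in females and -0.78 in males, where 48.6% of all genes were higher in KI females. Sizes are larger in the sex in which genes were chosen, and no order of the sexes is read from them. The test of the difference between the sexes called 1 of 15503 genes with edgeR, or 0.00645%, and 11 with DESeq2, and none of the 4 genes described above was among those called by edgeR.

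The share of genes that fell was larger among those that cerebellum expresses above the forebrain. Each gene was placed by its WT level in cerebellum minus its mean level in cortex and striatum, on the log2 scale, taken from WT animals of 24 months that are not among the 20. Among 5215 genes somewhat lower in cerebellum (-1 to 0) 0.383% fell, among 6840 somewhat higher (0 to 1) 1.04%, among 929 genes of 1 to 2 4.31%, among 311 of 2 to 3 10.3% and among 240 above 3 11.2%. The median log2 difference moved from 0.0092 through -0.0052, -0.0483 and -0.0645 to -0.0902 over these classes. The share that rose was 3.3% of 212 genes below -3 and 3.33% of the 240 above 3, against 0.614% of those from 0 to 1.

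Among genes of higher level the shares that fell were larger still, and the standard errors were smaller. For genes above 3, the median standard error was 0.061 in the highest 2 level classes and 0.104 over all levels. The median log2 difference was -0.121 there and -0.0902 over all levels. The part of this precision in the shares was not tested. In the highest 2 of the 5 level classes the shares that fell were 0.542% of 2030, 1.62% of 3276, 8.02% of 349, 18.3% of 120 and 20.9% of 86 for the same 5 classes. Without KI F5 and WT M2 they were 1.08%, 2.04%, 12.9%, 20.8% and 31.4%. ENSRNOG00000005609 is at the far end of this axis, 7.45 log2 units above the forebrain mean, and ENSRNOG00000034102 lies at 1.81, with WT levels of 6.04 in cerebellum, 5.46 in striatum and 3.00 in cortex (log2 CPM). ENSRNOG00000017456, which rose, lies at -2.54 and ENSRNOG00000015713, which also rose, at 1.16.

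**Figure D4:**
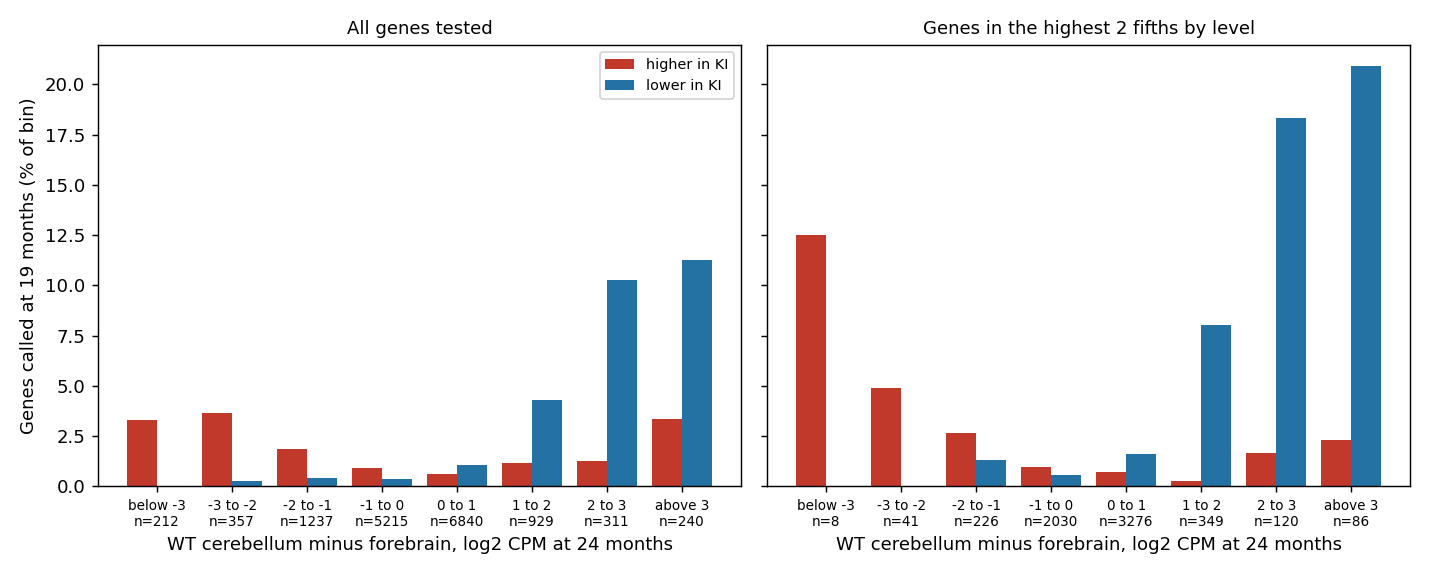
Percent of genes called higher (red) or lower (blue) in KI cerebellum at 19 months by class of WT cerebellum minus forebrain log2 CPM at 24 months, for all genes tested (left) and for the highest 2 of 5 level classes (right), with the number of genes under each class. The share that fell grows to 11.2% and 20.9% in the highest class; the leftmost class on the right holds 8 genes and is not read.

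Genes whose WT level at 24 months was 4-fold or more above that of the other regions served as a check of the tissue in each library. The 333 cerebellum-enriched genes had a mean log2 CPM of 3.97 to 4.35 in the 20 cerebellum libraries. In cortex this mean was 0.404 to 0.707 and in striatum 0.194 to 0.503. Each cerebellum library thus stood apart from those of the other regions, while this group does not separate cortex from striatum. KI and WT cerebellum overlapped on this mean, at 4.15 ± 0.113 and 4.19 ± 0.115 (SD, n = 10 each). Gene by gene, the group leaned lower in KI. Of 332 tested, 41 fell and 9 rose, where 1.28% of all genes fell and 1.02% rose. The log2 difference was below 0 in 234 (70.5%), with a median of -0.07, while 49.8% of all genes tested were above 0. Without KI F5 and WT M2, 51 of 332 fell and 10 rose, with a median of -0.07. In that fit 260 of all 15364 genes fell and 216 rose. With all 20 libraries, the share that fell was 3.17% of 63 genes in the lowest level class, where 0.521% of all genes fell. It was 21.7% of 92 in the highest, where 3.23% of all genes fell. With the mean level of this group as a covariate, 409 genes were called in all, of which 328 were among the 352.

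Forebrain genes were low in the cerebellum libraries and varied with single libraries. The 197 cortex-enriched genes had a mean log2 CPM of -0.856 to -0.402 in WT and -0.812 to -0.289 in KI cerebellum, with KI F5 highest at -0.289, and 3.22 to 3.58 in cortex itself. On these genes the striatum library KI M5 stood at 1.05, against at most 0.322 in WT striatum. Its part in the comparisons with striatum was not tested. The 204 striatum-enriched genes ran from -1.21 to -0.571 in WT and from -0.903 to -0.259 in KI cerebellum, with KI F5 again highest at -0.259. Among 116 cortex-enriched genes tested 4 rose and 0 fell, with a median of 0.04. Among 132 tested that are enriched in striatum, 5 rose and 0 fell, with a median of 0.11. Over all genes 1.02% rose and 1.28% fell. The part of the forebrain level of a library in these calls was not tested. Without KI F5 and WT M2 the medians were -0.03 and 0.06, and the class of genes below -3 turned from 0.0373 to -0.0491, so no direction is read for forebrain genes as a group. Without these libraries 6 of 118 cortex-enriched genes rose and 0 fell, while 4 of 133 enriched in striatum rose and 1 fell. In that fit 216 of all 15364 genes rose and 260 fell.

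**Figure D5:**
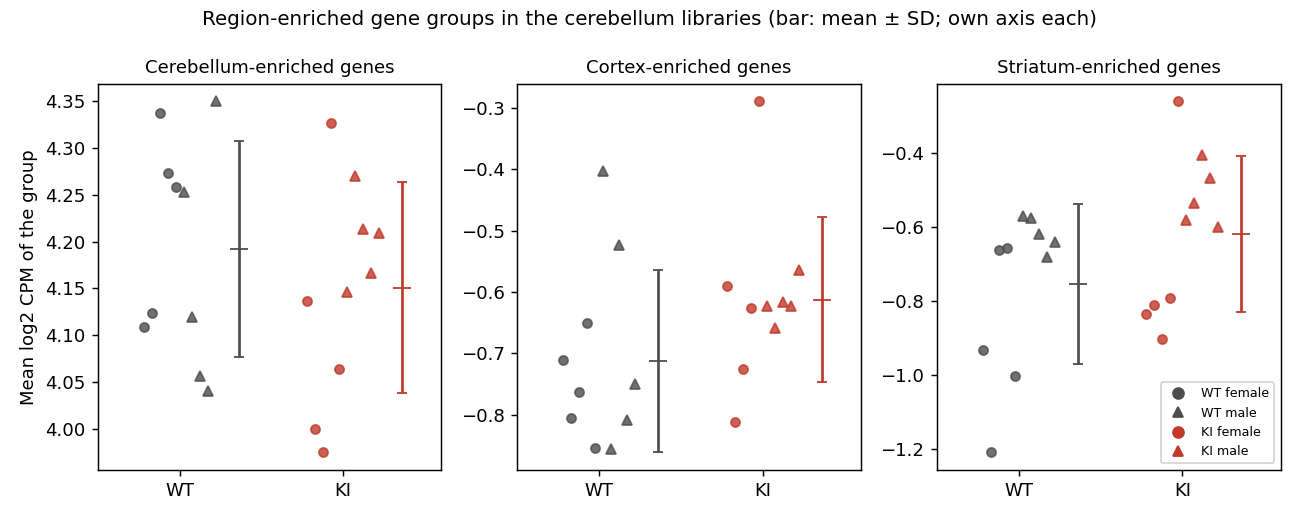
Mean log2 CPM of cerebellum-enriched, cortex-enriched and striatum-enriched genes in each of the 20 cerebellum libraries at 19 months (own vertical axis per panel), WT in grey and KI in red, circles for females and triangles for males, with mean ± SD. KI and WT overlap in all 3 panels, and KI F5 is the highest point in the middle panel at -0.289 and in the right panel at -0.259.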

How the data were processed

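RNA came from frozen tissue, extracted with a Qiagen kit, and libraries followed Illumina protocols, per the labels' protocols. The authors deposited estimated counts (8.12% of cells not whole; rounded here) and a second deposited table named FPKM whose libraries each sum to 1000000, so it was treated as TPM. Per the file headers, the reference was Rat.B6.0; the sources used here name no aligner, counting tool or annotation release. Columns were matched by animal and region. The planned count test assumed whole counts, and 39 gene lists needing symbols were not tested.

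Genes were tested with edgeR 4.0.16 in R 4.3.3 (TMM, filterByExpr, robust quasi-likelihood F test; sex as covariate; animal as block between regions), at a Benjamini-Hochberg adjusted p under 0.05 over all genes tested. CPM uses TMM factors within each region and age; log2 CPM has a prior count of 2. Alternatives used DESeq2 1.42.0 and limma 3.58.1. Genes, groups and the comparison were chosen with earlier results of these data known; identifiers were the 2 per direction of smallest p whose average log2 CPM reached 1 and whose sign was shared by the sexes. The fits without 2 libraries (mean correlation over 5 scaled MADs under the median), with the length trend or with the cerebellum-enriched mean, and the classes by region and level, were added after seeing the data.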

Additional observations from a re-analysis of the deposited data

Results flagged for a closer look

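In 5 of 50 groups checked, 1 library stood far from the others. The groups share libraries and are not independent, so this count is not set against chance. For ENSRNOG00000017456 in WT cerebellum, WT M1 stood at 4.11 CPM with the next at 2.94. For ENSRNOG00000015713 in WT striatum, WT M5 stood at 21.1 CPM with the next at 18.4. Among KI cerebella, cortex-enriched genes averaged -0.289 log2 CPM in KI F5 and -0.564 in the next library. Mean correlation with the other cerebella was lowest in WT M2, 0.981 (0.9815) against 0.989, and in KI F5, 0.981 (0.9813) against 0.987. Whether cortex-enriched RNA, striatum-enriched RNA or RNA quality in KI F5 had a part in any single call was not tested.

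The KI effect differed between regions of the same animals (edgeR) for 52 genes against cortex and 20 against striatum. For ENSRNOG00000017456 the difference, cerebellum minus the other region, was 1.80 against cortex and 1.67 against striatum. For ENSRNOG00000015713 it was 0.48 and 0.40. For ENSRNOG00000034102 it was -0.91 and -0.85, and for ENSRNOG00000005609 it was -0.69 against cortex. These genes were chosen in the same cerebellum libraries, so the sizes are in part built in.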

How the results depend on the processing

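The count of 352 genes was within 1.5 times under 30 of 35 alternatives. It was 547 with DESeq2, 77 in females alone, 8 in males alone and 586 with each library's length trend as a covariate. Leaving out 1 library at a time gave 269 to 410 genes. With the replicate number within sex as a block it was 195, of which 182 were among the 352; 3 of 10 same-numbered pairs had deviations correlated above 0.1, and 1 of 10 WT libraries correlated best with the KI library of its own number. The 4 genes kept their direction in all 35 alternatives each. This is largely built in, since they were chosen by p and by a sign shared by the sexes. The alternatives reuse the same libraries, 20 of them leaving out 1 library at a time, and are not independent. ENSRNOG00000005609 and ENSRNOG00000034102 passed in all 35 alternatives. ENSRNOG00000017456 and ENSRNOG00000015713 passed in all but males alone, with log2 differences of 1.43 and 0.38. Sex by genotype gave 11 genes with DESeq2 against 1. The mean KI score in cerebellum was 0.481 with genes of mean log2 CPM of at least 3, against 0.592, and all 10 KI animals still lay above the highest WT animal. Voom in limma gave 75 and 27 genes for cerebellum against cortex and striatum. At low counts the standard errors were larger, as given above for the level classes.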
